A study of Rattus norvegicus with 6 samples.

Results

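Leukocytes leave their own set of transcripts in whole kidney RNA, and 39 genes that mark them were followed here in congenic and S control rats. The genes were taken as given, by cell class: 12 of macrophages and monocytes, 5 of Fc receptors and the adaptors that signal for them, 6 shared by most leukocytes, 9 of T cells, 3 of B cells and 4 of killer cells. All probe sets that the array annotation gives to one of these genes and to no other gene were used, which made 45 probe sets for 37 genes, out of 31042 probe sets and 14217 named genes. Cd79a had no such probe set, and the 2 probe sets of Fcgr2a are also assigned to a second gene, so neither gene is described. A further probe set, shared by Gzmb and another gene, was left out in the same way.

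Kidney RNA came from 3 males of the Dahl salt-sensitive (S) strain, the controls, and 3 males of the congenic strain S.LEW(10)x12x2x3x5, each on an array of its own. S rats are an inbred model of salt-sensitive hypertension with proteinuria, and the congenic strain carries Lewis (LEW) rat sequence from chromosome 10 on the S background. The rats were born on 1 day and weaned at 30 days of age. They were fed 0.3% salt until their kidneys were taken at 53 days, and each cage held an S rat and a congenic rat. The labels do not say which rats shared a cage, and the congenic strain was compared with its background strain only, so the values say nothing of other LEW alleles.

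The kidney holds a resident network of macrophages and dendritic cells that lies between the tubules, with fewer T, B and killer cells. These cells share a surface phosphatase, CD45, and a cytoskeleton built for migration, and they differ in their receptors. Macrophages take up particles and antibody complexes through scavenger and Fc receptors. The T cell receptor signals through the CD3 complex, the B cell receptor through the CD79 pair, and killer cells carry granzymes and perforin. Activating Fc receptors signal through a tyrosine motif in adaptor chains, and the CD3 and CD79 chains carry such a motif themselves. The motif recruits the kinase Syk or its relative Zap70, while Fcgr2b carries an inhibitory motif.

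Macrophage promoters often lack a TATA box and carry a purine-rich box for the factor PU.1, and the stretches upstream of 4 genes that were higher in congenic rats are shown for that reason. They are the 250 bases before the gene start in the RefSeq GRCr8 assembly, which is of a BN rat, neither S nor LEW. The Cd14 stretch is chr18:28611159-28611408, that of Lyz2 chr7:54798012-54798261, that of Ptprc chr13:52259747-52259996 and that of Coro1a chr1:190731104-190731353, all on the minus strand. Capitals mark GAGGAA on either strand.
Cd14: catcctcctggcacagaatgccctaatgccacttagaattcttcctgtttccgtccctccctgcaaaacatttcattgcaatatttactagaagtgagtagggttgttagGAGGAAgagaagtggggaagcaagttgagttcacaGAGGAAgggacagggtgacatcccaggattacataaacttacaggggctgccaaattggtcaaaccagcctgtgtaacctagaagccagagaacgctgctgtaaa
Lyz2: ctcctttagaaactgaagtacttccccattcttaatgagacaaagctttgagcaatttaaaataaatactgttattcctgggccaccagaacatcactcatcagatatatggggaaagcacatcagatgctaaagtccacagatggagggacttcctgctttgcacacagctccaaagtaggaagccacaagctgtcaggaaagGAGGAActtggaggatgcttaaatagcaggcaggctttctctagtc
Ptprc: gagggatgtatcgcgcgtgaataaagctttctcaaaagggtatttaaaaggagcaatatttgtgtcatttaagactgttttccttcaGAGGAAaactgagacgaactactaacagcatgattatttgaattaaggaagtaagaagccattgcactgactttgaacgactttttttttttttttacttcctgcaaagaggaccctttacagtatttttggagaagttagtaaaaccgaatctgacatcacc
Coro1a: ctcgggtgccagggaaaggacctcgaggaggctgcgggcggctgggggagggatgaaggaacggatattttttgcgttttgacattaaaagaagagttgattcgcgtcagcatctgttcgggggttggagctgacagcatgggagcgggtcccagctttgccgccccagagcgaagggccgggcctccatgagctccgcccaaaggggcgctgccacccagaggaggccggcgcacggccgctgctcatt

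Cd14 had 2 matches, starting 140 and 105 bases before the gene start, Lyz2 had 1 at 46 bases and Ptprc 1 at 163 bases, while the Coro1a stretch had 0. Promoter sequences were found for 27 of the 37 measured genes, and 16 of them held GAGGAA on either strand, against 23.3% of all 33469 promoters of that length. By class the motif was in 9 of 11 macrophage genes, 3 of 4 pan-leukocyte genes, 3 of 7 T cell genes and 0 of 4 killer cell genes. TATAAA was found in 3 of the 27, Ctss, Gzmb and Laptm5, against 12.9% of all promoters. Members were counted by gene, with a match in any promoter sequence of the gene, and the shares over all by promoter sequence, so the measures differ. A match describes these letters only, and the motifs were chosen with the expression results known.

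Transcripts of the pan-leukocyte genes Ptprc, Laptm5 and Coro1a, of the macrophage genes Cd14, Lyz2 and Cybb, of the inhibitory Fc receptor gene Fcgr2b and of Cd4 were higher in congenic kidneys, by 1.27-fold to 1.79-fold. These are 8 of the 45 probe sets, 1 for each of 8 genes, at an adjusted p under 0.05 (limma, Benjamini-Hochberg over all probe sets), and 0 were lower. Over all probe sets tested 3.47% were called higher and 2.53% lower, 6.00% in all. In Ptprc, Laptm5 and Cybb a second, brighter probe set was not called, with log2 changes of 0.32, 0.08 and -0.05. Cd4 sat at the threshold (limma, adjusted p = 0.0498). Of the 8 called, 7 lay in the pan-leukocyte, macrophage and Fc receptor classes and 1 was Cd4, and none of the CD3, CD8, B cell or killer cell genes passed. The median log2 change over the 45 probe sets was 0.10, against -0.02 over all probe sets tested. Above 0 were 35 of the 45, against 13629 of all 31042. RNA quality, read from the 3′ minus 5′ difference of control probe sets, differed between the groups without overlap (mean 1.79 in S and 1.12 in congenic rats). With that value as a term in the model, the RNA quality term, 0 of the 45 and 0 of all probe sets were called. In whole tissue RNA more cells of a type and more RNA per cell cannot be told apart.

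**Figure D1:**
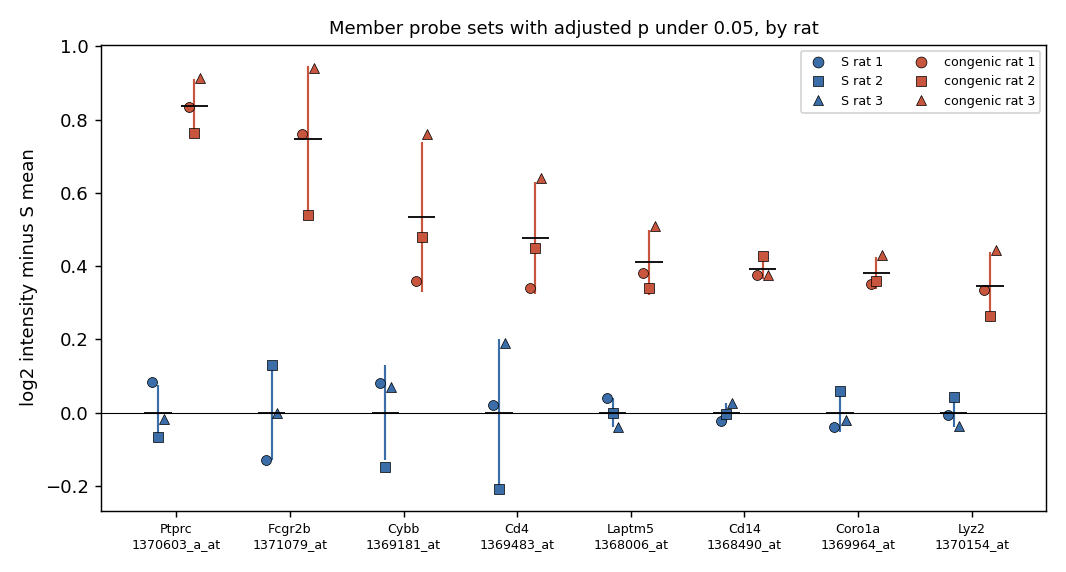
Log2 intensity of the 8 called leukocyte probe sets in each rat, minus the mean of the S rats for that probe set (vertical axis), with S rats in blue and congenic rats in red; marker shape gives the rat number, black lines are group means and vertical bars the SD (n = 3). The lowest congenic rat lies above the highest S rat in every one of the 8, which were picked by their adjusted p, so this is no further result. It was so in 13 of the 45 leukocyte probe sets and in 12.7% of all probe sets tested. The gap is widest at Ptprc, where congenic rats were at 7.31 or above and S rats at 6.63 or below.

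All 8 results depended on single rats for their call, though not for their direction, and so did calls over the whole array. Without S rat 3, congenic rat 2 or congenic rat 3, limma called 0 of the 45 probe sets (13, 13 and 12 were then below an unadjusted p of 0.05, against 13 with all rats), and without congenic rat 1 it called 1, that of Ptprc. Over all 31042 probe sets limma called 0 when S rat 3 was left out, 0 and 8 when congenic rats 2 and 3 were, and 350 when congenic rat 1 was, in place of 1862. Without S rat 1 it called 8 of the 45 and 4752 of all probe sets. Without S rat 2 it called 11 of the 45 and 968 of all probe sets. Below an unadjusted p of 0.05 were 7895 of all probe sets with all rats. There were 6968 without S rat 3, 5575 without congenic rat 2 and 5359 without congenic rat 3. With any one rat left out the log2 change stayed between 0.80 and 0.88 for Ptprc, 0.65 and 0.85 for Fcgr2b, 0.36 and 0.44 for Laptm5, 0.36 and 0.41 for Coro1a, 0.37 and 0.41 for Cd14, 0.30 and 0.39 for Lyz2, 0.42 and 0.62 for Cybb, and 0.37 and 0.57 for Cd4.

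Ptprc encodes CD45, the phosphatase found on nearly all leukocytes. Its probe set 1370603_a_at was at 6.63, 6.48 and 6.53 in S rats 1 to 3 and at 7.38, 7.31 and 7.46 in congenic rats 1 to 3 (log2 intensity). The congenic rats were close together and far above the S rats. The log2 change was 0.84 ± 0.07 (SE), a 1.79-fold rise with a 95% interval of 1.6 to 2.0 (limma, adjusted p = 0.00596). The second Ptprc probe set was at 8.72, 8.94 and 8.80 in S and at 9.18, 9.05 and 9.18 in congenic rats. These groups did not overlap either, but the change of 0.32 missed the threshold (limma, adjusted p = 0.0537). Without S rat 2 this probe set passed (0.38, limma, adjusted p = 0.0423).

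Laptm5, a lysosomal membrane protein of leukocytes, gave unequal answers at its probe sets. At 1368006_at it was at 8.98, 8.94 and 8.90 in S and at 9.32, 9.28 and 9.45 in congenic rats, a rise of 0.41 ± 0.07 (SE, 1.33-fold; limma, adjusted p = 0.0235). At 1383658_at the S rats were at 9.94, 10.16 and 9.88 and enclosed the congenic rats, at 10.06, 10.09 and 10.08, with a log2 change of 0.08 (95% interval -0.11 to 0.27; adjusted p = 0.618). Coro1a, an actin-binding coronin of leukocytes with 1 probe set, was at 9.45, 9.55 and 9.47 in S and at 9.84, 9.85 and 9.92 in congenic rats. Each group was tight and the 2 did not overlap. The rise was 0.38 ± 0.06 (SE, 1.3-fold; limma, adjusted p = 0.0235).

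The remaining pan-leukocyte genes did not pass. Cd53, a tetraspanin, was at 9.35, 9.57 and 9.43 in S and at 9.87, 9.67 and 9.82 in congenic rats, apart in level but with an adjusted p of 0.0537 (limma, log2 change 0.34). Without S rat 2 Cd53 passed (0.40, limma, adjusted p = 0.0467). Lcp1, the actin bundler L-plastin, was at 10.58, 10.82 and 10.66 in S and at 10.80, 10.75 and 10.98 in congenic rats, so that the groups overlapped. Its log2 change was 0.16, with a 95% interval of -0.04 to 0.36. Itgb2, the beta chain shared by the leukocyte integrins, stood at 0.05 (-0.12 to 0.21). All 8 probe sets of this class had a log2 change above 0, against 13629 of all 31042, and their median was 0.33. In 5 the congenic rats lay above all S rats, as in 12.7% of all probe sets tested.

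Among macrophage and monocyte genes, 3 of 14 probe sets were called higher, against 3.47% of all probe sets tested. Cd14, the co-receptor for bacterial lipopolysaccharide, was at 8.05, 8.07 and 8.10 in S and at 8.45, 8.50 and 8.45 in congenic rats. The spread within either group was small beside the gap. The rise was 0.39 ± 0.06 (SE, 1.31-fold, 95% interval 1.19 to 1.44; limma, adjusted p = 0.0212). Lyz2, the lysozyme of macrophages, was at 12.89, 12.94 and 12.86 in S and at 13.23, 13.16 and 13.34 in congenic rats, without overlap. It rose by 0.35 ± 0.07 (SE, 1.27-fold, 1.14 to 1.42; limma, adjusted p = 0.034).

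Cybb, the catalytic subunit of the phagocyte oxidase, rose at one of its probe sets only. At 1369181_at it was at 6.61, 6.38 and 6.60 in S and at 6.89, 7.01 and 7.29 in congenic rats, a change of 0.53 ± 0.11 (SE, 1.45-fold; limma, adjusted p = 0.0372). At 1379344_at it was at 9.06, 9.46 and 9.19 in S and at 9.27, 8.94 and 9.35 in congenic rats, with overlap and a log2 change of -0.05 (95% interval -0.35 to 0.25; adjusted p = 0.868). S rat 2 was the lowest of the 6 at the first and the highest at the second. Without S rat 2 the first stood at 0.46 and lost its call (adjusted p = 0.0709), and with the RNA quality term it shrank to 0.18 (adjusted p = 0.928).

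The other macrophage genes, which include the lineage's defining receptors, did not pass. Csf1r, the receptor for the growth factors CSF1 and IL-34 on which macrophages depend, was at 10.14, 10.52 and 10.35 in S and at 10.35, 10.17 and 10.36 in congenic rats, with a log2 change of -0.04 (95% interval -0.28 to 0.19). Cd68, a lysosomal glycoprotein, was at 8.93, 9.46 and 9.12 against 9.25, 9.15 and 9.28, a change of 0.06 (-0.23 to 0.34). Adgre1, an adhesion receptor that marks macrophages, was at 8.60, 9.36 and 8.81 against 9.25, 8.88 and 9.03, a change of 0.13 (-0.29 to 0.55). In these 3 genes S rat 1 was the lowest rat of all and S rat 2 the highest, so that the S rats spanned the congenic ones.

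Mrc1, the mannose receptor, was at 7.74, 8.21 and 7.64 in S and at 8.17, 8.0 and 8.19 in congenic rats, a change of 0.26 (adjusted p = 0.294), and Aif1, an actin-binding protein of macrophages, stood at 0.24 at 1368558_s_at (adjusted p = 0.235) and at 0.08 at 1369489_at. Without S rat 2 both passed, Mrc1 at 0.43 (limma, adjusted p = 0.0366) and Aif1 at 0.38 (limma, adjusted p = 0.0392). Itgam, the integrin chain CD11b, stood at 0.19, Ctss, a cathepsin of antigen-presenting cells, at 0.10, Cd163, the haemoglobin scavenger receptor, at 0.10 and Cx3cr1, the fractalkine receptor of resident macrophages, at 0.07, with adjusted p from 0.264 to 0.739. Cd163 lay low on the arrays, at 4.81 or below in every rat. The median over the 14 probe sets of the class was 0.12, and it was 0.05 without S rat 1 and 0.20 without S rat 2. Above 0 were 12 of the 14, against 13629 of all 31042 probe sets.

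**Figure D2:**
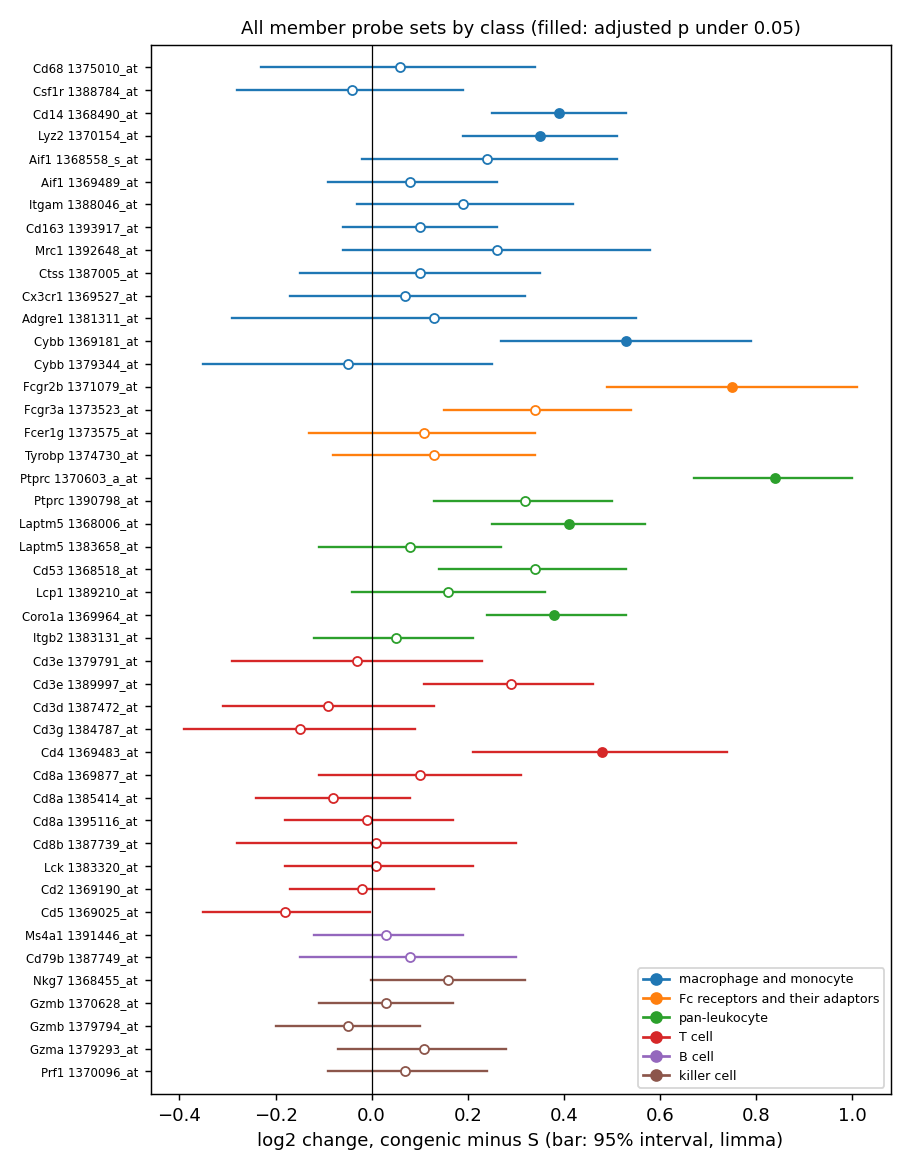
Log2 change, congenic minus S (horizontal axis), of all 45 leukocyte probe sets, listed by class on the vertical axis; bars are 95% intervals from limma, and filled points passed an adjusted p of 0.05. The filled points are 3 of 14 in macrophages, 1 of 4 in Fc receptors, 3 of 8 in pan-leukocyte genes and 1 of 12 in T cells. Over all probe sets tested 3.47% were called higher. The changes run from -0.18 for Cd5 to 0.84 for Ptprc.

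The Fc receptor genes Fcgr2b, Fcgr3a and Fcer1g lie on chromosome 13, as does Ptprc, and not on chromosome 10. Fcgr2b, the inhibitory receptor for IgG, was at 6.53, 6.79 and 6.66 in S and at 7.42, 7.20 and 7.60 in congenic rats. The lowest congenic rat was well above the highest S rat. The rise of 0.75 ± 0.11 (SE) is 1.68-fold, with a 95% interval of 1.41 to 2.01 (limma, adjusted p = 0.0202). Fcgr3a, an activating receptor for IgG on macrophages and killer cells, was at 8.46, 8.71 and 8.42 in S and at 8.85, 8.87 and 8.91 in congenic rats, also without overlap. Its change of 0.34 ± 0.08 (SE, 1.27-fold) missed the threshold (limma, adjusted p = 0.051), and passed without S rat 2 (0.43, limma, adjusted p = 0.023).

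The adaptors through which activating receptors signal did not pass. Fcer1g, the common gamma chain, was at 11.16, 11.53 and 11.34 in S and at 11.47, 11.34 and 11.55 in congenic rats, with overlap, and changed by 0.11 (95% interval -0.13 to 0.34). Tyrobp, the adaptor DAP12, was at 9.13, 9.43 and 9.31 against 9.45, 9.32 and 9.49, a change of 0.13 (-0.08 to 0.34). Fc receptor genes are close relatives, and whether the probes of one also bind transcripts of another was not tested.

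Of 12 T cell probe sets only that of Cd4 was called higher, against 3.47% of all probe sets tested. Cd4, the co-receptor of helper T cells, is in the rat also carried by macrophages. It was at 6.65, 6.42 and 6.82 in S and at 6.97, 7.08 and 7.27 in congenic rats, a change of 0.48 ± 0.12 (SE, 1.39-fold; limma, adjusted p = 0.0498). The call sat at the threshold, and leaving out S rat 2 ended it (0.37, adjusted p = 0.0904), as did normalizing the arrays by quantiles (adjusted p = 0.0509). With the RNA quality term Cd4 stood at 0.09 (adjusted p = 0.974).

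The CD3 chains, which define T cells, gave no call. Cd3g was at 7.70, 8.12 and 7.97 in S and at 7.80, 7.72 and 7.83 in congenic rats, and Cd3d at 6.90, 7.25 and 7.10 against 7.08, 6.94 and 6.95. In both the S rats reached above the congenic ones and S rat 1 was lowest. Their log2 changes were -0.15 (95% interval -0.39 to 0.09) and -0.09 (-0.31 to 0.13). Cd3e stood at -0.03 (-0.29 to 0.23; adjusted p = 0.912) at 1379791_at. At 1389997_at it lay low on the arrays, at 4.94, 5.09 and 5.04 in S and at 5.41, 5.31 and 5.20 in congenic rats. The groups were apart in level, with a change of 0.29 (limma, adjusted p = 0.0659).

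Lck, the kinase that starts T cell receptor signalling, was at 8.19, 8.40 and 8.43 in S and at 8.45, 8.28 and 8.34 in congenic rats, a change of 0.01 (95% interval -0.18 to 0.21). The 3 probe sets of Cd8a lay between -0.08 and 0.10, Cd8b at 0.01 and Cd2, an adhesion receptor, at -0.02. Cd5, a receptor that dampens T cell signalling, was the only one of the 45 probe sets with all congenic rats below all S rats, as in 18.4% of all probe sets tested. It was at 6.00, 5.93 and 6.05 in S and at 5.92, 5.71 and 5.82 in congenic rats, and its change of -0.18 did not pass (limma, adjusted p = 0.19). The median over the 12 T cell probe sets was -0.01, with 5 above 0 and 7 below.

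B cell and killer cell genes were represented by 7 probe sets, and none passed (adjusted p from 0.197 upwards). Ms4a1, which encodes CD20, was at 6.00, 5.98 and 6.09 in S and at 6.05, 6.14 and 5.99 in congenic rats. Cd79b, a chain of the B cell receptor, was at 7.40, 7.18 and 7.43 against 7.51, 7.49 and 7.24. Both overlapped between the groups, with changes of 0.03 (95% interval -0.12 to 0.19) and 0.08 (-0.15 to 0.30). Nkg7, a granule protein of killer cells, was at 6.46, 6.53 and 6.56 in S and at 6.77, 6.61 and 6.64 in congenic rats, a change of 0.16 (adjusted p = 0.197).

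The cytolytic genes lay low on the arrays. The lower quartile of all probe sets was between 5.88 and 5.96 on the 6 arrays, and Gzmb (at most 5.44 at both probe sets), Gzma (at most 5.18) and Prf1 (at most 5.84), which encode granzymes and perforin, were below it in every rat. Cd163 (at most 4.81), Cd3e at 1389997_at (at most 5.41) and Cd8a at 1369877_at (at most 5.89) were also below the lower quartile of the array in every rat. No detection call was used, so these probe sets say little of the transcripts. Gzmb stood at 0.03 and -0.05, Prf1 at 0.07. Gzma was at 5.06, 5.0 and 4.88 in S and at 5.02, 5.18 and 5.08 in congenic rats, with overlap and a change of 0.11 (adjusted p = 0.426).

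Of the 37 measured genes 7 had more than 1 probe set, and in Ptprc, Laptm5 and Cybb the probe set that was called had a partner that was not. With only the probe set of highest mean for each gene, 4 of 37 leukocyte genes were called higher, Cd14, Lyz2, Coro1a and Fcgr2b, against 2.02% of all 14217 genes in the same fit. Of these 4, each has 1 probe set, so no second measurement of them was at hand.

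**Figure D3:**
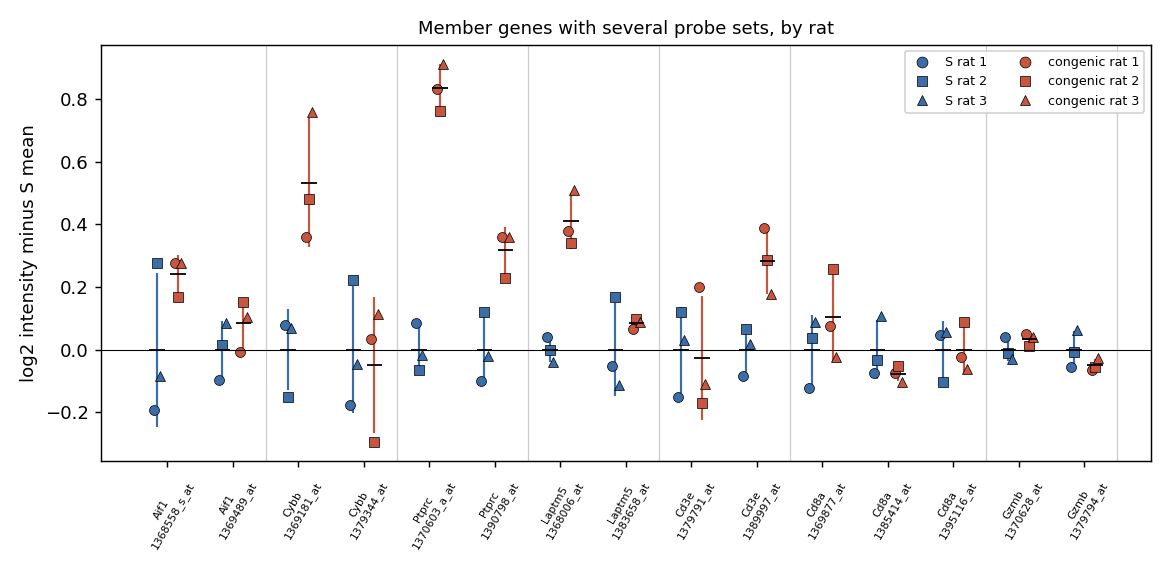
Log2 intensity minus the S mean (vertical axis) in each rat for the 7 leukocyte genes with several probe sets, S rats in blue and congenic rats in red, with group means (black lines) and SD (bars, n = 3). The called probe sets of Cybb (0.53), Ptprc (0.84) and Laptm5 (0.41) stand beside partners at -0.05, 0.32 and 0.08, while the 3 probe sets of Cd8a and the 2 of Gzmb stay near 0.

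Partners of these genes in signalling and in the oxidase were followed in lists of the same kind, each gene by its probe set of highest mean. For these and the later lists, the shares over all probe sets tested were 3.47% called higher and 2.53% lower. Of 4 measured partners of the phagocyte oxidase, Cyba, the chain that pairs with Cybb, rose from 10.27 ± 0.17 to 10.95 ± 0.10 (log2, SD, n = 3; 1.61-fold; limma, adjusted p = 0.0179) and 3 did not pass, with Ncf1 at 0.24 and Rac2 at 0.03. The second, dimmer Cyba probe set stood at 0.14 (adjusted p = 0.359), and Cyba is not limited to leukocytes. Of 14 genes that signal from tyrosine motifs 1 rose, Lyn, a Src family kinase (0.88, limma, adjusted p = 0.0332), while Syk, Btk and Dok2 did not pass. The second Lyn probe set stood at 0.03 (adjusted p = 0.889), and Lyn went from 0.88 to 0.06 with the RNA quality term. The list medians were 0.13 for the oxidase and 0.04 for signalling.

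Of 12 leukocyte growth factors and their receptors, Csf2rb, the common beta chain for GM-CSF and related cytokines, rose by 0.54 (1.46-fold; limma, adjusted p = 0.021) and stood at 0.23 with the RNA quality term (adjusted p = 0.774). Csf2ra, its partner in the GM-CSF receptor, stood at -0.43 (adjusted p = 0.0537). The ligands of Csf1r, Csf1 and Il34, stood at 0.08 and 0.15 and did not pass. Of 7 myeloid transcription factors 1 rose, Maf (1.09, limma, adjusted p = 0.032; 0.44 and 0.47 at its other probe sets), which tubule cells also express. With the RNA quality term Maf stood at 0.23 (adjusted p = 0.942), and its probe sets at 0.44 and 0.47 then stood at 0.17 and 0.37. Irf8 and Irf5 stood at 0.23 and 0.24 (adjusted p = 0.0809 and adjusted p = 0.0799). None of 9 leukocyte integrin and actin genes passed, with the adhesion receptors Icam1 at 0.26 and Vcam1 at 0.25.

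Markers of leukocytes outside these classes mostly did not pass, and over all probe sets tested 3.47% were called higher. None of 6 dendritic cell genes passed, with Clec9a, a receptor of cross-presenting dendritic cells, at 0.26 (adjusted p = 0.0919), and none of 7 neutrophil genes passed, with S100a9 at 0.11. Of 8 mast cell genes only Kit, a receptor that other kidney cells also express, passed (0.48, adjusted p = 0.0413, limma), and it stood at 0.37 without S rat 2 (adjusted p = 0.0622) and at -0.0036 with the RNA quality term (adjusted p = 0.999), while Cpa3, a mast cell protease, stood at 0.23 (adjusted p = 0.265). Of 6 plasma cell genes none passed, with Jchain, the joining chain of IgA and IgM, at 0.27 (adjusted p = 0.0865).

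Kidney markers were high in all rats, with Umod, made by the thick ascending limb, between 14.62 and 14.76 and Lrp2, which encodes megalin, between 13.51 and 13.67. S rat 2 was far the lowest in 3 of 10 epithelial markers, at 9.38 for Calb1, 9.50 for Slc12a3 and 5.67 for Nphs1. S rat 3 was next lowest in each, at 12.73, 11.73 and 6.90. S rat 1 and the congenic rats were at 13.46 or more for Calb1, 12.21 or more for Slc12a3 and 8.27 or more for Nphs1. Slc34a1 had the smallest p of the 10 markers, with a log2 change of 0.28 at its brighter probe set (limma, adjusted p = 0.118). Its other probe set stood at 0.34 (limma, adjusted p = 0.0629). At both the congenic rats lay above all S rats, as in 12.7% of all probe sets tested. With the RNA quality term they stood at -0.04 and 0.20. Aqp1, a water channel of the proximal tubule, stood at -0.05 at its brighter probe set. At its dimmer one the S rats averaged 11.19 ± 0.48, with S rat 2 lowest, and the congenic rats 12.15 ± 0.14 (SD, n = 3), a rise of 0.95 (1.94-fold; limma, adjusted p = 0.0392) that became -0.13 with the RNA quality term. The summed log2 level of the 10 markers was between 118.62 and 128.83 in S and between 127.78 and 128.35 in congenic rats. Of 4 red blood cell markers Slc4a1, which acid-secreting tubule cells also express, fell by 0.28 (limma, adjusted p = 0.0463) while another Slc4a1 probe set had a change of 0.31 (adjusted p = 0.0842), and the other 3 did not pass. Their summed log2 level ran from 37.93 to 43.44 in S and from 38.82 to 41.47 in congenic rats. The part of either in the leukocyte results was not tested.

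S rat 1 stood at the low end for many leukocyte genes, while S rat 2 stood at either end. S rat 1 was the lowest of the 6 rats in 22 of the 45 probe sets (48.9%), against 15.3% of all probe sets tested, and the highest in 0. S rat 2 was the highest in 9 (20.0%), against 32.5% of all probe sets, and 5 of those 9 were macrophage probe sets. It was also the lowest in 8 (17.8%), against 22.8% of all probe sets. Congenic rat 3 was the highest in 16 (35.6%), against 13.9%. The median of the 45 probe sets relative to the S mean was -0.07 in S rat 1, 0.05 in S rat 2, 0.02 in S rat 3, 0.11 in congenic rat 1, 0.09 in congenic rat 2 and 0.11 in congenic rat 3. The congenic rats were thus all above the S rats, with a gap between S rat 2 and congenic rat 2 that is smaller than the gap between S rats 1 and 2. Over all probe sets tested the median relative to the S mean was -0.02, 0.01 and -0.005 in S rats 1 to 3. It was -0.03, -0.01 and -0.02 in congenic rats 1 to 3.

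RNA quality moved with the groups. The 3′ minus 5′ difference of the control probe sets for beta-actin and Gapdh, which is larger in degraded RNA, was 1.56, 2.10 and 1.70 in S rats 1 to 3 and 1.26, 1.01 and 1.08 in congenic rats 1 to 3 (log2). The groups did not overlap, with a difference of -0.67 (exact permutation test, two-sided, p = 0.1, the smallest that 3 against 3 allow). With this value as a term in limma's model 0 of the 45 probe sets passed, as did 0 of all probe sets. Below an unadjusted p of 0.05 there were then 21 of the 45, in place of 13, and 2292 of all, in place of 7895.

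The term moved leukocyte genes both ways. It raised the median of the 45 from 0.10 to 0.33, that of macrophages from 0.12 to 0.40, that of Fc receptors from 0.24 to 0.55, that of pan-leukocyte genes from 0.33 to 0.44 and that of T cells from -0.01 to 0.21, and it lowered that of B cells from 0.06 to -0.09 and that of killer cells from 0.07 to 0.02, while the median of all probe sets went from -0.02 to -0.00063. Adgre1 went from 0.13 to 1.08, Mrc1 from 0.26 to 0.88 and Cd68 from 0.06 to 0.61, with adjusted p from 0.436 to 0.458. Of the called probe sets, Fcgr2b went from 0.75 to 1.06, Coro1a from 0.38 to 0.48 and Lyz2 from 0.35 to 0.43, Cd14 and Laptm5 hardly moved (0.37 and 0.38), and Ptprc went from 0.84 to 0.72. Cybb and Cd4 shrank, from 0.53 to 0.18 and from 0.48 to 0.09. Because the term itself separates the groups, strain and RNA quality cannot be told apart with 6 rats.

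**Figure D4:**
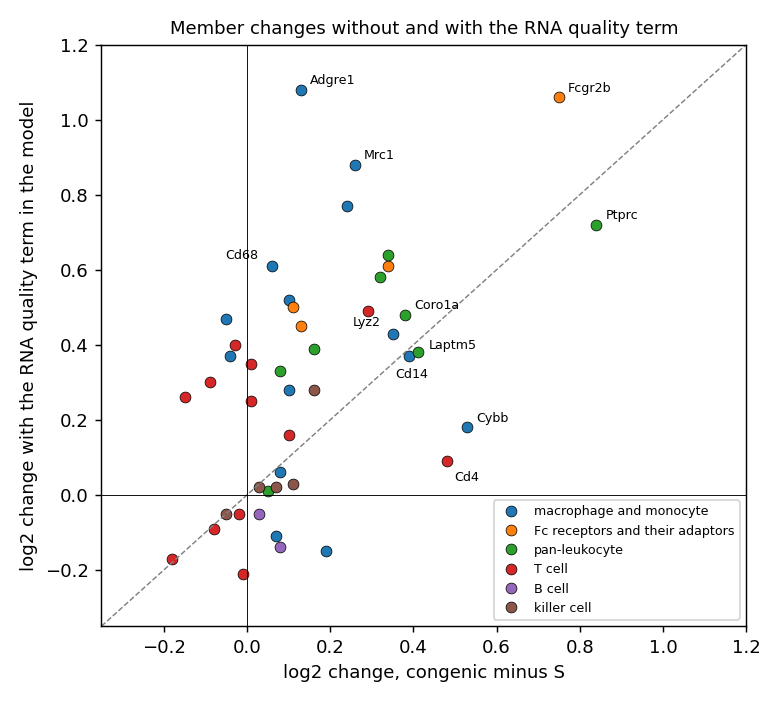
Log2 change, congenic minus S, of the 45 leukocyte probe sets without (horizontal axis) and with (vertical axis) the RNA quality value as a term of the fit, coloured by class; the dashed line marks equal values. Above the line lie 9 of 14 macrophage, 4 of 4 Fc receptor, 5 of 8 pan-leukocyte, 8 of 12 T cell, 0 of 2 B cell and 2 of 5 killer cell points, with Adgre1 at 1.08 against 0.13, and the called probe sets of Cybb and Cd4 lie far below it.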

How the data were processed

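Total kidney RNA of each rat was hybridised to 1 Affymetrix rat expression array. Probe set values were deposited as log2 intensities, already comparable between arrays by their quartiles; their software is not given in the sources used here. Scanner files were not used here. Of 31099 probe sets, 57 controls were left out. Gene names follow the platform annotation, updated by Entrez identifier to the RefSeq table of GRCr8.

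The 2 groups were tested by limma 3.58.1 under R 4.3.3 (two-sided, 4 residual and 8.49 total degrees of freedom), with adjustment over all 31042 probe sets. Intervals are 95% intervals from the same fit. Arrays have no read depth, so precision rests on 3 rats per group. Alternatives were other normalizations, a filter on dim probe sets, other variance models, array weights, a block for rat number, each rat left out in turn, 1 probe set per gene, the RNA quality term and a threshold of 0.1.

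The genes, lists and alternatives were chosen with earlier results of these data known. Full values were given, by rule, for called probe sets and, in each class, for the probe set of highest mean and the 2 genes with the smallest p. Of other lists up to 3 genes with the smallest p were named. Values by rat of Cd53, Cd68, Csf1r, Adgre1, Mrc1, Tyrobp, Cd3d, Cd3g and Cd5, and values of Syk, Csf1, Il34, Umod, Lrp2, Slc12a3 and Aqp1, were given beyond that rule, after their values were seen. So were the values by rat of the uncalled probe sets of Ptprc, Laptm5 and Cybb.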

Additional observations from a re-analysis of the deposited data

How the results depend on the processing

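The 8 called probe sets kept a change above 0 under every alternative run in which they were measured, and their calls did not hold under all. The number of the 45 called higher was 8; it was 14 with array weights, 4 (of 37 genes) with 1 probe set per gene, 0 without moderation (13 below an unadjusted p of 0.05), 0 with the RNA quality term, and from 0 to 11 with 1 rat left out. Called lower were 0, 1 with array weights (Cd5), and 0 with any rat left out. Over all probe sets 1862 were called, 4455 at an adjusted p under 0.1, 6077 with array weights, 666 (of 14217) with 1 probe set per gene, 0 without moderation (6166 below an unadjusted p of 0.05), 0 with the RNA quality term, and from 0 to 4752 with 1 rat left out. The median of the 45 moved from 0.10 to 0.33 with the RNA quality term and to 0.05 without S rat 1, and lay between 0.09 and 0.13 under the others. That of the 12 T cell probe sets (-0.01) lay between -0.08 and 0.01 with 1 rat left out.

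With the rat number as a replicate block 2 of the 45 were called, Ptprc and Fcgr2b, and 658 of all probe sets. Same-numbered rats did not deviate together (correlations of -0.0143, -0.182 and -0.138 over probe sets), so the numbers were not taken as pairs. Other pairs of an S and a congenic rat ran from -0.247 (S rat 3 with congenic rat 1) to 0.384 (S rat 3 with congenic rat 2). The labels do not name cage mates, so the fit took them as independent and sharing a cage was not accounted for. Values near 0 changed sign: Lck (0.01) to -0.04 with array weights, -0.00089 with median centring and between -0.06 and 0.06 with 1 rat left out (below 0 without S rat 1 and without congenic rat 1), Ms4a1 (0.03) to -0.05 with the RNA quality term, -0.03 with array weights and between -0.0044 and 0.07 with 1 rat left out (below 0 without congenic rat 2), and Cd79b (0.08) to -0.14 with the RNA quality term and -0.04 with array weights. The 3′ minus 5′ difference lay between -0.78 and -0.51 with any rat left out, and was -0.69 after quantile normalization. The cause of these shifts was not tested. Dim probe sets, the killer cell genes among them, are limited by signal over background.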
